A study of Mus musculus with 2 samples.

Results

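The killer lectin-like receptors are a family of C-type lectin-like membrane proteins of natural killer (NK) cells and some T cells. Members were taken by symbol, as the genes listed as Klra, Klrb, Klrc, Klrd, Klre, Klrg, Klri or Klrk followed by a digit, with names ending in -ps left out. This gave 26 of the 55357 genes listed. Of these, 26 had at least 1 UMI (a counted RNA molecule) in the control library and 25 in the other. MC38 is a colon carcinoma line of the mouse, and leukocytes of its tumours, sorted as CD45+ and 7-AAD-, were read as 2 single-cell RNA libraries. The control library came from SPP1fl/fl mice and the other from SPP1fl/fl-Lyz2-icre mice, so both carried floxed Spp1 alleles and differed by Lyz2-icre, a Cre under the control of a gene active in macrophages, monocytes and neutrophils. With 1 library for each genotype, the genotypes could not be compared by a test, and what is given are the values of these libraries. Strain, age, number of mice and time of tumour growth were not given in the sources used here, and both libraries held cells of both sexes.

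Most of these genes lie side by side in the NK gene complex. The Klra genes encode the Ly49 receptors, which read classical MHC class I on other cells; some inhibit the NK cell through phosphatases and others activate it through the adaptor encoded by Tyrobp. Each NK cell is known to express a few of them, in combinations that differ from cell to cell. Klrd1 encodes CD94, the shared chain that pairs with the inhibitory NKG2A (Klrc1) or the activating NKG2C and NKG2E (Klrc2, Klrc3) to read the non-classical MHC molecule H2-T23. Klrk1 encodes NKG2D, which binds stress-induced ligands, the Klrb1 genes encode NKR-P1 receptors for Clec2 proteins, and Klrg1 encodes a cadherin receptor.

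In the GENCODE vM21 annotation of mm10 all 26 members lie on chromosome 6, with 23 on the minus strand. The Klrb1 to Klra2 stretch covers 2638135 bases, and Klrg1 (chr6:122270596-122282882) and Klrg2 (chr6:38625693-38637242) lie outside it. The sequences below are the 200 bases before the annotated start of 5 Ly49 genes (RefSeq, GRCm38.p6). They are shown because the results turn on where these 5 genes were found. Klra4 and Klra8 were higher in NK than in CD8 T cells, and Klra5 was found in both. Klra2 and Klra17 lay mainly outside the lymphoid gates. Klra4 was also found in cells gated by fibroblast genes, which held 30.6% and 48.9% of its UMIs in the control and Lyz2-icre libraries. Capitals mark GAGGAA or its reverse complement TTCCTC, the core sequence to which PU.1, a factor of myeloid cells, binds.
Klra4 (chr6:130067272-130067471, minus strand): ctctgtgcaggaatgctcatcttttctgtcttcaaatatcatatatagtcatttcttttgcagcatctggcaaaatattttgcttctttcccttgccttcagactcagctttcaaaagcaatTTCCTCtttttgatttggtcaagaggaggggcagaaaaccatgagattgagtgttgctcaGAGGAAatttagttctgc
Klra8 (chr6:130129899-130130098, minus strand): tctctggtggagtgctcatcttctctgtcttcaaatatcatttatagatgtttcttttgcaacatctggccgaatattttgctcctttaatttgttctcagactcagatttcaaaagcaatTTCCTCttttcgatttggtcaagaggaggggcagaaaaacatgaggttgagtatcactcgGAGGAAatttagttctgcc
Klra5 (chr6:129913225-129913424, minus strand): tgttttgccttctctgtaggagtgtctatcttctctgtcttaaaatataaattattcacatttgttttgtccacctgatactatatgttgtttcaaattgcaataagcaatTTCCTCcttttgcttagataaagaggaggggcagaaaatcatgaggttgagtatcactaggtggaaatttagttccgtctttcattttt
Klra2 (chr6:131247363-131247562, minus strand): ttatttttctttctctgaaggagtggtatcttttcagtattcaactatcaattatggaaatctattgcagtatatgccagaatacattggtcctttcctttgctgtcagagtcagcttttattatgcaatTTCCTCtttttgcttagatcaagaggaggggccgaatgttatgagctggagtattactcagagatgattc
Klra17 (chr6:129876673-129876872, minus strand): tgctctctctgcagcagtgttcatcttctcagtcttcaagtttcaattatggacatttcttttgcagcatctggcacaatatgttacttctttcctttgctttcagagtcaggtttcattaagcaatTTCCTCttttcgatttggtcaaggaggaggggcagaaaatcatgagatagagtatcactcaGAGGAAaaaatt
Over 250 bases before the start, the Klra4 window was 84.5% identical to that of Klra8, 78.5% to Klra17, 74.0% to Klra7, 70.1% to Klra2 and 64.2% to Klra5. GAGGAA stood on either strand in 9 of the 11 Klra windows, against 23.3% of all 32851 windows of that length. As many Klra windows resemble each other, these 9 are not independent matches. All 5 sequences printed above held GAGGAA, those of Klra8 and Klra5 as well as those of Klra4, Klra2 and Klra17. Whether it bears on where the RNA of these genes was found was not tested. TGTGGT, the letters read by RUNX factors, stood in 8 of the 23 members with a window (14.0% of all windows), and TCACAC, read by T-box factors, in 1 of 23 (12.3% of all windows). These are matches of letters and not binding sites.

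Cells were gated on marker genes, none of them a family member. NK cells had an Ncr1 UMI and no Cd3d, Cd3e or Cd3g UMI, and T cells had at least 2 Cd3 UMIs and were divided by Cd8a and Cd8b1, Cd4, Foxp3, Trdc and Ncr1. Lymphoid gates also needed under 0.3% of UMIs from 8 macrophage genes. The NK gate held 188 control and 204 Lyz2-icre cells, the CD8 T gate 267 and 329, the conventional CD4 T gate 69 and 42, the regulatory T gate 99 and 73, the gamma-delta T gate 58 and 47, the Cd3+ Ncr1+ gate 41 and 21, and the other T gate 107 and 123. The NK gates carried the NK genes Eomes (124 and 101 CPM), Prf1 (833 and 777 CPM) and Xcl1 (1882 and 1902 CPM). The CD8 T gates carried Trac (598 and 646 CPM). CPM is a gene's UMIs per 1e6 UMIs of the gate. Since the tags sit at the 3′ end, counts do not scale with transcript length. Spp1 in the macrophage gate was 505 CPM in the control and 2.70 CPM in the Lyz2-icre library, and Lyz2, whose locus carries the icre allele, was 11630 and 4135 CPM there. Spp1 was 1226 and 566 CPM in the NK gate and 303 and 291 CPM in the CD8 T gate. Kept cells numbered 8724 and 13915 with medians of 9379.5 and 6374 UMIs, and 43 barcodes were shared by both. The control NK gate held more Lyz2 RNA than the other (1347 against 159 CPM). The 8 macrophage genes were level there (533 and 534 CPM). As the gate itself caps these 8 genes, they are not an independent measure of macrophage RNA in it. Intervals are 95% and cover the counting of UMIs or cells, not the spread between mice, and those on UMIs leave out the spread between cells too.

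The whole family made up 3566 CPM of NK RNA in the control and 4274 CPM in the Lyz2-icre library, a ratio of 1.20 (interval 1.15 to 1.25). CD8 T cells held 2002 and 2680 CPM, a ratio of 1.34 (1.28 to 1.40). Much of both differences lay in 1 gene, Klrd1, at 902 and 1374 CPM in NK and 724 and 1206 CPM in CD8 T cells. The Cd3+ Ncr1+ gate was as rich as the NK gate (3554 and 4057 CPM), whereas regulatory T cells held 377 and 307 CPM and macrophages 185 and 196 CPM. Family RNA was thus highest in NK, Cd3+ Ncr1+ and CD8 T cells in both libraries, with other T (1162 and 1481 CPM), conventional CD4 T (779 and 658 CPM) and gamma-delta T cells (486 and 890 CPM) between these and regulatory T cells. No family UMI was seen in the mast or basophil gate, in 127580 and 29725 UMIs.

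Of 18 members with at least 20 UMIs in some lymphoid gate of each library, 9 were highest in NK cells in both libraries, where 2.86% of all 7261 genes measured were. They were Klra3, Klra4, Klrb1a, Klrb1b, Klrb1c, Klrd1, Klre1, Klri2 and Klrk1. The order asked only for the highest CPM, with no margin between gates. For some members the Cd3+ Ncr1+ gate came close, as for Klrd1 in the Lyz2-icre library and Klrk1 in the control. Klra1, Klra7 and Klrc2 were highest in the Cd3+ Ncr1+ gate (5.12% of all genes), Klrc1 in CD8 T cells (2.07%) and Klrg1 in regulatory T cells (6.39%). No member was highest in conventional CD4 T (4.43%), gamma-delta T (7.01%) or other T cells (2.15%) in both libraries. The other 4 had their highest level in different gates of the 2 libraries. Against CD8 T cells, 11 of 18 members were at least 2-fold higher in NK cells in both libraries (2.29% of all genes), and none was lower (2.39%). The 11 were Klra1, Klra3, Klra4, Klra7, Klra8, Klra9, the 4 measured Klrb1 genes and Klrg1. Klrd1, Klrc2, Klrk1, Klri2 and Klre1 were shared by both cell types, the widest of these differences being that of Klre1, at 1.78 and 1.48 times the CD8 T level in the NK gate.

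**Figure D1:**
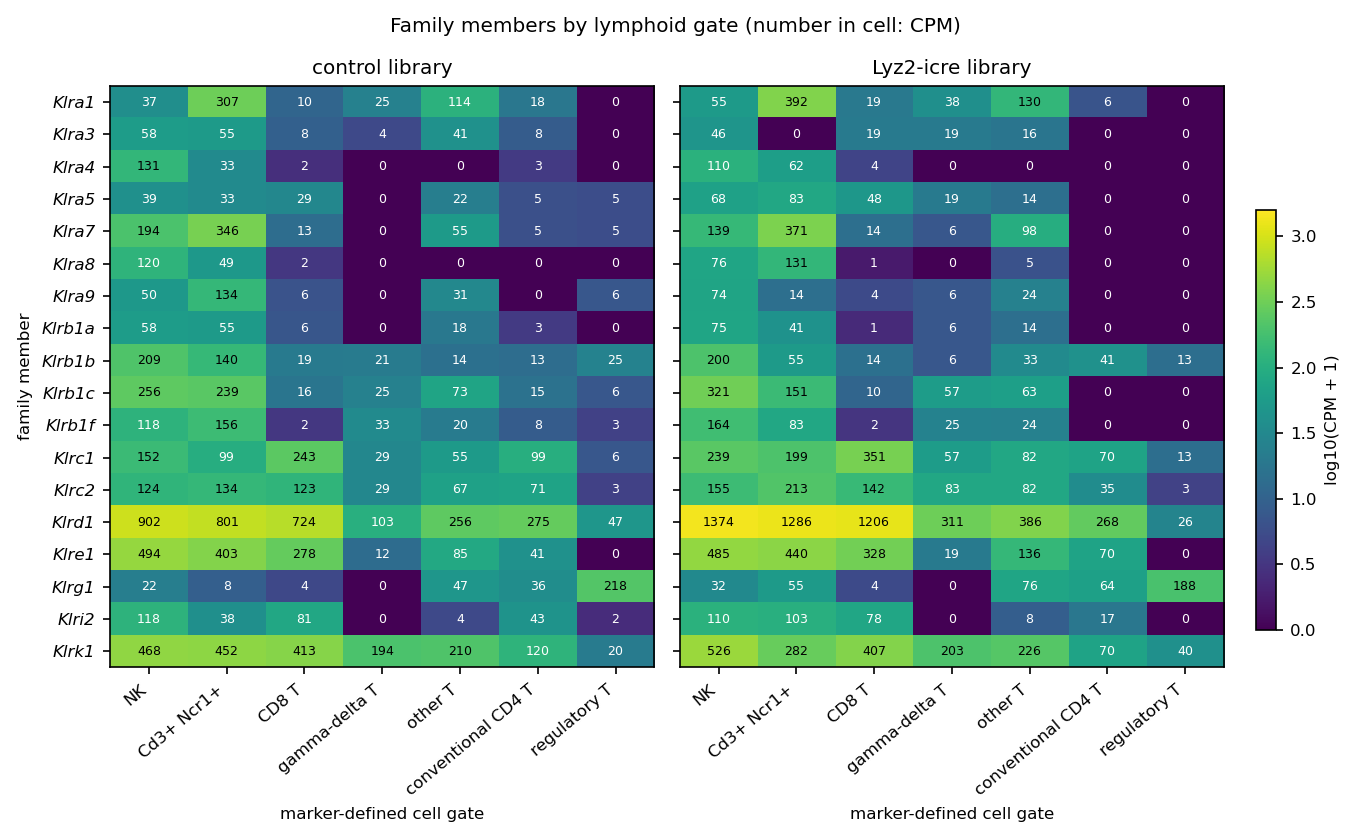
Level of the 18 measured members (rows) in 7 lymphoid gates (columns) of the control (left) and Lyz2-icre library (right). Colour is log10(CPM + 1) and the number is CPM. Klrd1 was the highest member in the NK gate (902 and 1374 CPM), and Klrg1 stood out in regulatory T cells (218 and 188 CPM).

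Klrd1, the CD94 chain, was the most abundant member in NK and CD8 T cells and was past 1.5-fold between libraries in 5 of the 7 lymphoid gates. NK cells held 902 CPM (855 to 951) in the control and 1374 CPM (1302 to 1448) in the Lyz2-icre library, a ratio of 1.52 (1.41 to 1.64). This was under 1.5-fold in 5 of 15 other settings, with log2 ratios of 0.57 and 0.52 at macrophage limits of 0.1% and 1%, 0.57 for the mean of per-cell CPM, 0.16 in male cells and 0.53 without cells carrying other lineages' genes. CD8 T cells held 724 CPM (685 to 765) and 1206 CPM (1149 to 1265), a ratio of 1.66 (1.55 to 1.79). Nearly all cells of both types had it: a UMI was found in 96.3% and 95.1% of NK cells and in 91.4% and 92.1% of CD8 T cells. After each cell was drawn down to 2000 UMIs, these shares were 82.3% and 90.9% in NK and 72.1% and 84.0% in CD8 T cells. In fibroblast-gated cells, which should lack the receptor, a UMI was found in 2.33% and 2.20% of cells, at median depths of 13126 and 9547 UMIs against 7013.5 and 4370.5 in NK cells.

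The same direction was seen for Klrd1 in 3 further gates. The ratio was 1.61 (1.33 to 1.94) in Cd3+ Ncr1+ cells, from 801 to 1286 CPM, and 1.51 (1.18 to 1.93) in other T cells, from 256 to 386 CPM. Gamma-delta T cells held 103 and 311 CPM, a ratio of 3.02 (1.83 to 5.11), but 1 cell held 13 of the 25 control UMIs and another 13 of the 49 Lyz2-icre UMIs. Conventional CD4 T cells were level (275 and 268 CPM), and regulatory T cells held 47.3 and 26.4 CPM from 30 and 8 UMIs. Across sexes, CD8 T cells gave 1.77 in female (165 and 173 cells) and 1.79 in male cells (66 and 73). NK cells gave 1.57 in female cells (137 and 122) and 1.12 (0.933 to 1.34) in the 29 and 42 male cells. The Klrd1 ratio was thus past 1.5-fold in both sexes in CD8 T cells and in female cells alone in NK cells, and the difference between sexes was not tested.

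Klrc1, the inhibitory partner NKG2A, was higher in CD8 T than in NK cells. NK cells held 152 and 239 CPM, a ratio of 1.57 (1.30 to 1.88), and CD8 T cells 243 and 351 CPM, a ratio of 1.44 (1.26 to 1.64), just under 1.5-fold. Klrc2, the activating partner NKG2C, was level within its interval in CD8 T cells (123 and 142 CPM, ratio 1.15, 0.943 to 1.40) and was 124 and 155 CPM in NK cells (1.25, 1.01 to 1.56). Klrc1 over Klrc2 was accordingly 1.97 and 2.47 in CD8 T cells and 1.23 and 1.54 in NK cells, with overlapping intervals between libraries in each type. Klrc3 had at most 5 UMIs in any lymphoid gate. Of the 100-base stretches in the last 500 bases of the Klrc1 transcripts, 17.1% recur in another gene. Some Klrc reads may therefore not be assignable to 1 gene, and the share affected was not measured.

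Klrk1 and Klre1 were within 1.5-fold between libraries in NK and CD8 T cells, where Klrd1 was past it. Klrk1 (NKG2D) was 468 and 526 CPM in NK cells, a ratio of 1.12 (1.003 to 1.26), and 413 and 407 CPM in CD8 T cells, a ratio of 0.985 (0.881 to 1.10). Klre1, which forms heterodimers with Klri1 or Klri2, was 494 and 485 CPM in NK cells (0.981, 0.874 to 1.10) and 278 and 328 CPM in CD8 T cells (1.18, 1.03 to 1.34). In 2 smaller gates they were past it, Klre1 upward in other T cells (85.5 and 136 CPM, 1.59, 1.03 to 2.46) and Klrk1 downward in Cd3+ Ncr1+ cells (452 and 282 CPM, 0.623, 0.431 to 0.882). Klri2 was 118 and 110 CPM in NK and 80.9 and 78.0 CPM in CD8 T cells, with both intervals spanning 1. Klrd1 over Klrk1, within the same cells, went from 1.93 (1.76 to 2.11) to 2.61 (2.36 to 2.89) in NK and from 1.75 (1.60 to 1.92) to 2.96 (2.69 to 3.26) in CD8 T cells. These ratios do not depend on how the gates were scaled. Klri1 reached 7 UMIs at most in a lymphoid gate, and in cDC2 it had 23 and 11 UMIs.

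Counting all members, 3 of 18 measured in NK cells were past 1.5-fold upward with an interval clear of 1 (Klrd1, Klrc1 and Klra5), where 1.9% of all 6309 genes measured were, and 1 was past it downward (Klra8), where 6.01% of genes were. In CD8 T cells 2 of 7 were past it upward (Klrd1 and Klra5, 3.53% of 6464 genes) and 0 downward (5.34%). The median log2 ratio of the members was 0.32 in NK and 0.23 in CD8 T cells, beside -0.04 and -0.04 for all genes. In gamma-delta T cells 1 of 2 members was past 1.5-fold upward (5.22% of genes) and 0 downward (8.74%), and in other T cells 3 of 10 upward (3.87%) and 0 downward (5.35%). In conventional CD4 T cells 0 of 4 were past it upward (4.34%) or downward (7.48%), and in regulatory T cells 0 of 2 (3.27% and 5.49%). In the Cd3+ Ncr1+ gate, with 41 and 21 cells, 2 of 13 were past it upward (3.78%) and 5 downward (7.47%). Among the latter, Klra9 was 134 and 13.8 CPM, from 49 and 2 UMIs.

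**Figure D2:**
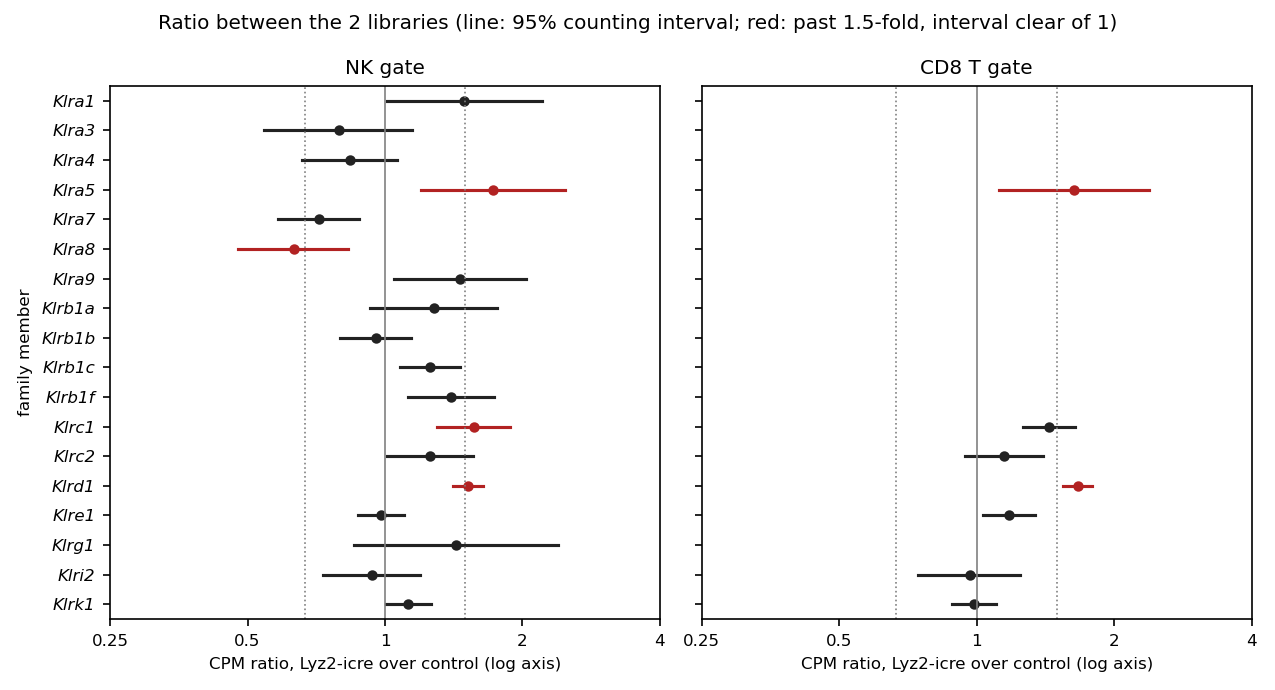
Ratio of CPM, Lyz2-icre over control, on a log axis for the members measured in NK (left, 18) and CD8 T cells (right, 7). Lines are 95% counting intervals, dotted lines 1.5-fold, and red marks Klrd1, Klrc1, Klra5 and Klra8 in NK and Klrd1 and Klra5 in CD8 T cells.

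The activating Ly49 receptors were higher in NK than in CD8 T cells. Klra4 (Ly49D) was 131 CPM (114 to 151) in control and 110 CPM (90.8 to 133) in Lyz2-icre NK cells, against 1.70 and 3.58 CPM in CD8 T cells. Klra8 (Ly49H) was 120 and 75.5 CPM in NK cells, a ratio of 0.631 (0.477 to 0.829), against 2.26 and 0.715 CPM in CD8 T cells. Cd3+ Ncr1+ cells held 32.9 and 61.9 CPM of Klra4, from 2 of 41 and 3 of 21 cells, and 49.4 and 131 CPM of Klra8, from 3 and 2 cells. Both genes thus set NK cells apart from CD8 T cells in each library. By sex, Klra8 was 129 and 83.5 CPM in female and 168 and 36.7 CPM in male NK cells. Klra4 was 118 and 125 CPM in female but 163 and 18.3 CPM in the few male NK cells, from 34 and 4 UMIs.

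The inhibitory Ly49 receptors differed in where they were found. Klra7 (Ly49G) was 194 and 139 CPM in NK cells (ratio 0.716, 0.582 to 0.879) and 346 and 371 CPM in Cd3+ Ncr1+ cells. Klra1 (Ly49A) was 307 CPM in the control and 392 CPM in the Lyz2-icre library in Cd3+ Ncr1+ cells and 114 and 130 CPM in other T cells, above both NK (36.6 and 54.7 CPM) and CD8 T cells (10.2 and 18.6 CPM). In NK cells 1 cell of each library held 16 of the 56 and 55 Klra1 UMIs. By sex, the Klra7 ratio in NK cells was 0.853 (0.675 to 1.07) in female and 0.2995 (0.159 to 0.534) in male cells. That of Klra1 was 2.21 (1.39 to 3.53) and 0.371 (0.131 to 0.932), the male value from 18 and 7 UMIs, and that of Klra3 was 1.23 (0.780 to 1.91) and 0.402 (0.152 to 0.962), from 19 and 8. The sexes thus gave opposite directions for Klra1 and Klra3, although the female Klra3 interval spans 1, and the difference between sexes was not tested. Klra6 (Ly49F) was likewise 49.4 and 61.9 CPM in Cd3+ Ncr1+ cells but 0.654 and 3.98 CPM in NK cells, from 18 and 9 UMIs against 1 and 4. Klra3 (Ly49C) was 57.6 and 45.7 CPM and Klra9 (Ly49I) 50.4 and 73.6 CPM in NK cells, with the ratio of Klra9 at 1.46 (1.05 to 2.04). Median depth was 8183 and 6096 UMIs in Cd3+ Ncr1+ cells, above that of NK cells, and no doublet caller was run.

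Klra5 (Ly49E) was the Ly49 gene that NK and CD8 T cells shared. NK cells held 39.2 and 67.6 CPM, a ratio of 1.72 (1.20 to 2.48), and CD8 T cells 29.4 and 47.9 CPM, a ratio of 1.63 (1.12 to 2.39). Few cells carried it: at 2000 UMIs it was found in 4.42% and 5.38% of NK and 3.02% and 6.74% of CD8 T cells. In CD8 T cells with a UMI of the granzyme gene Gzmb it was 56.9 CPM in the control and 58.5 CPM in the Lyz2-icre library. Those without Gzmb held 8.04 and 35.0 CPM, from 8 UMIs in 4 of 150 control cells and 22 UMIs in 9 of 154 Lyz2-icre cells. The libraries were thus further apart in the cells without Gzmb, but on few cells. With cells drawn down to 2000 UMIs, and in male cells, Klra5 was not past 1.5-fold in NK or CD8 T cells. The family as a whole hardly differed by Gzmb, at 1.08 and 1.14 times the level without it.

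Per cell, Ly49 genes were few, as measured by 9 Klra genes (without Klra2 and Klra17) at 2000 UMIs. No Ly49 gene was found in 54.1% and 57.5% of NK cells, 1 in 22.1% and 23.7%, and at least 2 in 23.8% and 18.8%. With all UMIs used, none was found in 43.1% and 48.0%, so these shares depended on the depth. CD8 T cells had at least 1 in 7.17% and 11.0% at 2000 UMIs and Cd3+ Ncr1+ cells in 65% and 55% (of 40 and 20 cells). Klra4 and Klra8 were found together in 10 control NK cells where 3.73 would be met if independent, and in 7 where 3.01 would in the other library. Klra7 was found in 46.2% and 46.4% of NK cells with Klra4 against 18.7% and 12.0% of those without. Klrc1 and Klrc2 were found together about as often as if independent, with 12 cells against 10.7 and 16 against 16.4. Cells of 1 library share their library and depth, so these are descriptions.

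Among the NKR-P1 genes, Klrb1c was the highest in NK cells, at 256 and 321 CPM (ratio 1.26, 1.08 to 1.46), and in 45.9% and 48.9% of them at 2000 UMIs. Klrb1b was 209 and 200 CPM, a ratio of 0.955 (0.796 to 1.14), and Klrb1f 118 and 164 CPM, a ratio of 1.39 (1.12 to 1.73). Klrb1a was 58.2 and 74.5 CPM, and Klrb1 had 2 and 1 UMIs. CD8 T cells were low in all of them, at 2.26 to 19.2 CPM in the control among the 4 named above other than Klrb1. Klrb1b and Klrb1c overlap the gene Gm44511 on the same strand and shared 12.3% and 10.5% of their end stretches with other genes. Their counts are therefore uncertain, and the share of reads affected was not measured. Klrg1 was 218 CPM (183 to 257) in control and 188 CPM (143 to 244) in Lyz2-icre regulatory T cells, in 31.2% and 26.4% of them at 2000 UMIs. NK cells held 22.2 and 31.8 CPM of Klrg1 and CD8 T cells 3.96 and 4.29 CPM, so the level in regulatory T cells was above both. Klrg2 and Klra10 had at most 2 UMIs in any lymphoid gate.

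Some members lay mainly outside lymphocytes. Klra2 (Ly49B) was 104 and 112 CPM in macrophages, 154 and 244 CPM in monocytes (ratio 1.59, 1.37 to 1.84) and 126 and 202 CPM in neutrophils, the last from 61 and 14 UMIs, against 5.89 and 14.9 CPM in NK cells. Klra17 (Ly49Q) was 116 and 132 CPM in plasmacytoid dendritic cells (23 and 19 cells) and 45.5 and 72.1 CPM in neutrophils, with 0 and 2 UMIs in NK cells. The Lyz2-icre neutrophil and plasmacytoid dendritic cell gates held 69314 and 75801 UMIs of all genes, so their Klra17 values rest on few UMIs. Klra2 was thus higher in these myeloid gates than in NK cells in both libraries. Klra17 was higher than in NK cells in plasmacytoid dendritic cells and neutrophils. Klrb1b was 139 and 73.9 CPM in cDC1 (ratio 0.530, 0.354 to 0.779), 108 and 111 CPM in cDC2 and 49.9 and 49.0 CPM in macrophages. Klrk1 was 149 and 154 CPM in cDC1, 113 and 159 CPM in cDC2 and 145 and 192 CPM in migratory dendritic cells. Klrd1 was 262 and 349 CPM in cDC2 and 335 and 290 CPM in plasmacytoid dendritic cells, but 3.68 and 6.67 CPM in macrophages. Klrd1 was thus well above its macrophage level in cDC2 and plasmacytoid dendritic cells, and Klrk1 was found in cDC1, cDC2 and migratory dendritic cells.

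Klra4 was also found in the fibroblast gate, at 83.9 CPM (215 UMIs in 67 of 172 cells) in the control and 116 CPM (347 UMIs in 113 of 273 cells) in the Lyz2-icre library. This was 30.6% and 48.9% of all Klra4 UMIs of the kept cells, against 28.6% and 15.6% in the NK gate. The other 25 members together had 49 and 92 UMIs in the same cells, and the NK gene Ncr1 had none there. Of these cells, 14.5% and 11.4% had a UMI of Ptprc, which encodes CD45, the sorting marker. The Klra4-positive ones were deeper (medians of 17431 and 12932 UMIs against 11001 and 7358). They held less Col3a1 (5404 against 12909 CPM and 2746 against 11903 CPM) and Dcn (601 against 2221 CPM and 316 against 2002 CPM), and more of the proliferation gene Mki67 (315 against 49.6 CPM and 237 against 86.2 CPM). The end of the Klra4 transcript shared no 100-base stretch with another gene, and the annotation holds no gene overlapping it. What these cells are was not tested, and the total of Klra4 over all cells is not a measure of NK cells.

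**Figure D3:**
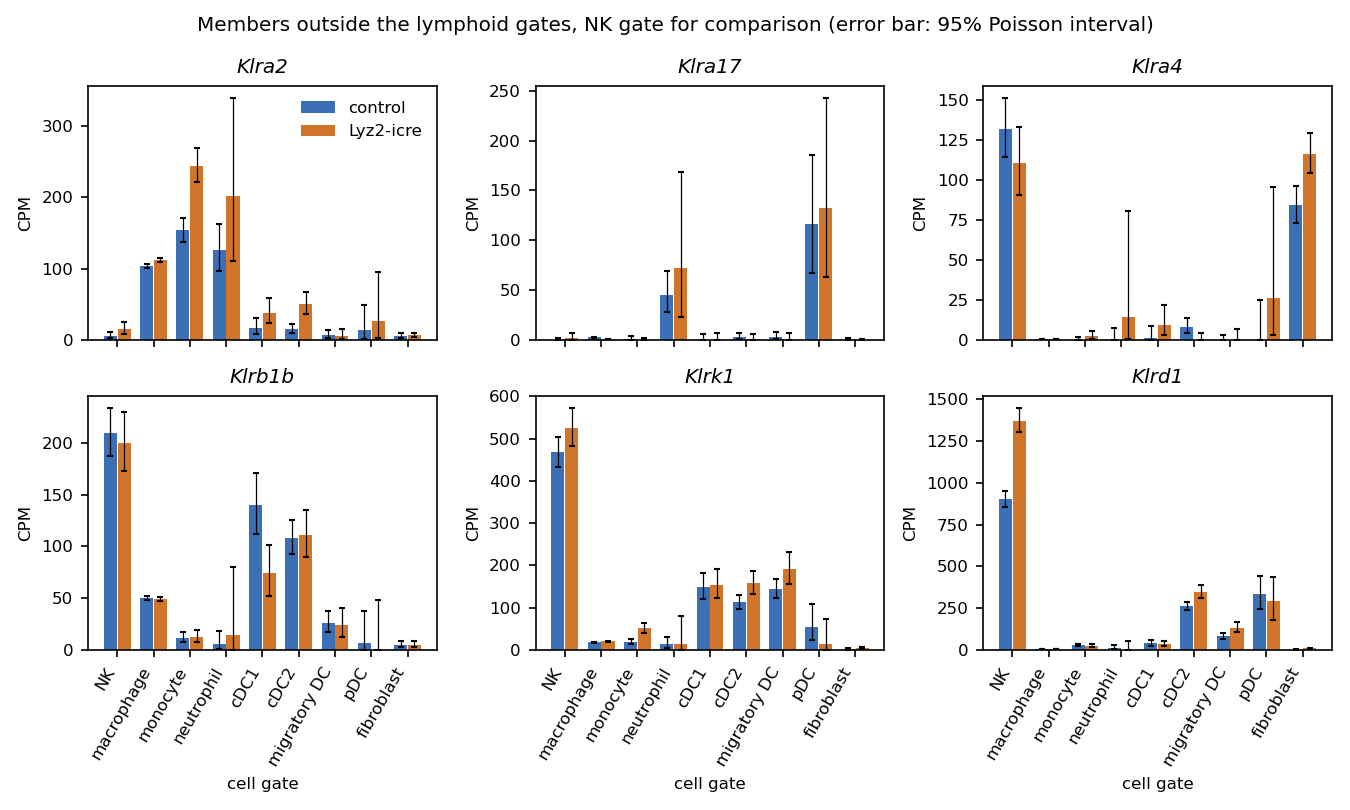
CPM of 6 members in the NK gate and 8 gates outside lymphocytes, control in blue and Lyz2-icre in orange, with 95% Poisson intervals. Klra2 was highest in monocytes, Klra17 in plasmacytoid dendritic cells, and Klra4 in NK cells (131 and 110 CPM) and the fibroblast gate (83.9 and 116 CPM).

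The signalling partners of the receptors mostly stayed within 1.5-fold between libraries. Of 12 adaptor and signalling genes in NK cells, 0 were past 1.5-fold upward and 1 downward, against 1.9% and 6.01% of all genes, and in CD8 T cells 0 and 1 of 11 (3.53% and 5.34%). In NK cells the highest ratios were those of Cd247, the CD3 zeta chain (35.3 and 52.7 CPM, 1.49), and Hcst, the NKG2D adaptor DAP10 (226 and 264 CPM, 1.17). The lowest were Ptpn11, the phosphatase SHP-2 (49.7 and 30.8 CPM, 0.620), and Vav1 (61.5 and 53.7 CPM, 0.873). The corresponding genes of CD8 T cells were Vav1 (1.28) and Cd247 (1.15), and Ptpn11 (0.649) and Fcer1g (0.751). Tyrobp, which carries the activating Ly49 signal, was 1741 and 2018 CPM in NK cells and 217 and 234 CPM in CD8 T cells.

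Ligands were read in the cells that could show them. In macrophages 0 of 5 measured ligand genes were past 1.5-fold upward (0.689% of all genes) or downward (1.34%), as were 0 of 3 members. The highest ratios there were those of Cdh1, a cadherin that KLRG1 binds (20.8 and 29.7 CPM, 1.42), and the MHC class I gene H2-K1 (1661 and 1989 CPM, 1.20). The lowest were Clec2d, the ligand of NKR-P1B (73.2 and 68.5 CPM, 0.936), and H2-D1 (1960 and 2178 CPM, 1.11). H2-T23, which CD94 with NKG2A reads, was 142 and 163 CPM there.

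In the fibroblast gate 0 of 7 ligand genes were past 1.5-fold upward (3.13% of genes) and 1 downward (5.13%), while 0 of 1 member was. The lowest ratios were those of Raet1e (40.2 and 25.5 CPM, 0.634) and Ulbp1 (29.7 and 25.1 CPM, 0.847), both genes of NKG2D ligands. The highest were H2-K1 (1.22) and H2-T23 (1.18). In NK cells 0 of 7 were past it downward (6.01% of genes) and 1 upward (1.9%), Clec2d, at 75.2 and 130 CPM (1.73, 1.34 to 2.24), followed by Ulbp1 (1.28), and the lowest were Cdh1 (0.827) and H2-T23 (0.934). In CD8 T cells 0 of 7 were past it downward (5.34%) and 1 upward (3.53%), Cdh1, at 9.61 and 20.7 CPM (2.16, 1.15 to 4.19), followed by Clec2d (1.19), and the lowest were Clec2i (0.894) and H2-T23 (0.958). H2-T23 was thus within 1.5-fold in these 4 gates, where Klrd1 was past it in NK and CD8 T cells.

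Other NK receptors outside the family served as a comparison. In NK cells, with the gating gene Ncr1 left out, 0 of 9 were past 1.5-fold upward and 1 downward (1.9% and 6.01% of all genes). In CD8 T cells 0 of 9 were past it upward or downward (3.53% and 5.34%). The highest ratios of the 9 in NK cells were Cd226 (103 and 132 CPM, 1.28) and Cd160 (72.6 and 84.5 CPM, 1.16), and Ncr1 itself was 421 and 547 CPM (1.30). The lowest were Crtam (34.7 and 16.9 CPM, 0.487) and Lag3 (43.2 and 30.8 CPM, 0.714). The corresponding genes of CD8 T cells were Cd96 (1.34) and Crtam (1.17), and Cd244a (0.695) and Il2rb (0.796).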

How the data were processed

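Per the labels' protocols, MC38 tumours were digested and CD45+ 7-AAD- cells were loaded on a 10x Genomics 3′ kit (V3). Per the submitters' processing notes, bcl2fastq 5.0.1 and Cell Ranger with mm10 were used, and the file headers give Cell Ranger 8.0.1. The annotation release and the treatment of intronic reads are not given in the sources used here. All values start from UMI counts per gene and called cell, which the authors deposited without normalization.

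Kept were cells of at least 300 genes and 500 UMIs whose mitochondrial share was 15% or less (8724 of 9154 and 13915 of 13944). No doublet caller was run, and free RNA was not removed. UMIs were summed per gate. CPM had exact Poisson, ratios exact conditional binomial and shares Clopper-Pearson intervals at 95%. Log2 ratios had 5 CPM added. A gene was measured at 20 UMIs and 20 CPM in the higher library, and past 1.5-fold only with an interval clear of 1. Of the design's marker names, Tcrg-C1 and Tcrg-C2 did not match a listed symbol and were not used. With 1 library per genotype there was no test and no p-value. Left out by the macrophage limit were 61 and 104 Ncr1-positive and 314 and 489 Cd3-positive cells. The B and group 2 innate lymphoid gates held under 20 cells in both libraries and were not used. The mast or basophil and plasmacytoid dendritic cell gates were used, although they held 12 and 19 cells in the Lyz2-icre library. A division of the NK gate by further markers is not reported here. Sex was read from Xist and 4 Y-linked genes. Of the gene IDs, 52081 of 55357 were in GENCODE vM21, and 23 of 26 members had a RefSeq promoter. Named were all members, with full values at 20 UMIs in a lymphoid gate, and of each pathway list the 2 highest and 2 lowest ratios. H2-T23 in macrophages, Tyrobp and Ncr1 were added after their values were seen. Members, lists and gates were chosen with earlier results of these data known. Python 3.11.15, numpy 2.4.6 and scipy 1.17.1 were used.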

Additional observations from a re-analysis of the deposited data

How the results depend on the processing

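No paired analysis was possible because the labels give no replicate numbers and there was 1 library per genotype. Results were recomputed under 15 other settings, 1 of them, without cells carrying other lineages' genes, chosen after seeing the data (it left out 15 and 7 NK and 27 and 28 CD8 T cells, and its Lyz2 limit acts unequally because Lyz2 itself was lower in the Lyz2-icre library). The log2 ratio of the family in NK cells, 0.26, was 0.11 with a macrophage limit of 1%, 0.046 in male cells and 0.17 without other lineages' cells. In CD8 T cells, 0.42 became 0.50 with a limit of 0.1% and 0.51 without other lineages' cells. Members past 1.5-fold upward in NK cells, 3, were 1 in male cells. Those downward, 1, were 3 with a limit of 1%, 2 with 2 Ncr1 UMIs, 3 in male cells and 2 without other lineages' cells. In CD8 T cells the 2 upward became 1 after thinning, 4 in female cells and 4 without other lineages' cells. The 9 members highest in NK cells became 5 in female and 4 in male cells. Klra5 in male CD8 T cells reversed, at -0.084 from 8 and 6 UMIs. Klrd1 in CD8 T cells was past 1.5-fold in 15 of 15 settings (log2 0.65 to 0.84). In NK cells it was in 10 of 15 (0.16 to 0.70), and it was 0.53 without other lineages' cells. Klrc1, Klra5 and Klra8 in NK cells were past it in 12, 13 and 13. The cause of these shifts was not tested. Median-of-ratios scaling divided Lyz2-icre levels by 0.98 in NK and 0.97 in CD8 T cells (log2 of these factors -0.03 and -0.04). The ratios between libraries thus rose slightly. Gates of under 60 cells limit what their levels can show.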
